A study of Homo sapiens with 10 samples.

Results

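The collagen genes of TPC-1 cells, an established human papillary thyroid carcinoma line that carries the RET/PTC1 fusion, were described by their RNA levels. They were taken by annotation, as all protein-coding genes whose symbol in the deposited tables has the form of a collagen chain (COL, a type number, A and a chain number). This gave 44 of 58735 genes. The family itself was chosen with earlier results of these data known. OE cells were transfected with a vector for overexpression of the long non-coding RNA PTCSC3-AS1, and EV cells with an empty vector (n = 5 libraries each). Replicates 4 and 5 of each group are in a second deposited table, here the second set, and replicates 1 to 3 in another, the first set. The study describes its libraries as 5 pairs. The sources used here do not say what separates the sets, what joins the members of a pair or whether replicates were separate cultures, so p-values measure the spread between these libraries. The OE columns are named OE in the second set and EST_OE in the first set. Neither genotype nor passage is given in the labels, and the level of the transcript that the vector carries could not be used to check the OE labels, because PTCSC3-AS1 has no row under that name.

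Collagens are trimers of alpha chains wound into a triple helix, and each gene of the family encodes a single type of chain. The fibrillar collagens form the fibrils of connective tissue, the FACIT collagens bind to fibril surfaces, type IV collagen makes the network of basement membranes, and type VI makes beaded microfilaments beside them. Transmembrane collagens sit in the cell surface, the multiplexins COL15A1 and COL18A1 lie at basement membranes, and COL7A1 builds the anchoring fibrils of epithelia. Thyroid follicles rest on a basement membrane, while fibrillar collagen of tissues is made mainly by fibroblasts.

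The genes of type IV collagen lie head to head in pairs, and the start regions of these pairs are shown because members of a pair had either similar or very different levels in these cells. Windows were taken from 250 bases before to 50 bases after the start site, from RefSeq on GRCh38.p14. COL4A1 and COL4A2 start 127 bases apart on opposite strands of chromosome 13, and their windows share 226 bases. COL4A6 and COL4A5 start 380 bases apart on chromosome X, and their windows share 121 bases. Capitals mark CCAAT and GGGCGG on either strand, which did not overlap, and TATAAA on either strand was in none of these windows.

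COL4A2, chr13:110307034-110307333, plus strand: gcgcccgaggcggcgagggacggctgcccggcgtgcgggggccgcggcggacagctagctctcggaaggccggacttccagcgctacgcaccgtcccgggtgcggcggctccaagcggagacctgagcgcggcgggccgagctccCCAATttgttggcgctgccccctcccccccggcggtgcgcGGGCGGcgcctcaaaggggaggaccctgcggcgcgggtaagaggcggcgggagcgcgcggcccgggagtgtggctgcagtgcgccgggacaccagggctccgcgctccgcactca
COL4A5, chrX:108439588-108439887, plus strand: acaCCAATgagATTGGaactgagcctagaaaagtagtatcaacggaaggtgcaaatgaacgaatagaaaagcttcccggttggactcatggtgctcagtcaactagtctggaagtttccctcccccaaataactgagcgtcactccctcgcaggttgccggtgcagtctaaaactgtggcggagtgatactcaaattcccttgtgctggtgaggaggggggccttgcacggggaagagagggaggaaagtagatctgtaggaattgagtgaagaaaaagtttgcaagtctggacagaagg
COL4A6, chrX:108439409-108439708, minus strand: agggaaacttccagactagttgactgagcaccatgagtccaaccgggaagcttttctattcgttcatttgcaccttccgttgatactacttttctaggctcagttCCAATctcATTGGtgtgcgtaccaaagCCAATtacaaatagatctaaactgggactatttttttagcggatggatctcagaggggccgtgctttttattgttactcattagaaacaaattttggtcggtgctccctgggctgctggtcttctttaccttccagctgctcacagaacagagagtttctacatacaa

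The COL4A2 window, in which the COL4A1 start is at position 124, had 77.7% G and C, against 49.3% for COL4A5 and 43.7% for COL4A6. It held 1 CCAAT and 1 GGGCGG, whereas the COL4A5 and COL4A6 windows held 2 and 3 CCAAT and 0 GGGCGG. Windows were matched for 32 of the 44 collagen genes (44 windows). CCAAT was in 31.8% of these and in 34.6% of all 35116 windows, GGGCGG in 54.5% and 45.0%, and TATAAA in 18.2% and 11.5%. These are matches of letters, not sites of a factor.

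Libraries held 15761474 to 18066559 counts, so 3 counts, the limit that a count of 0 allows, equal 0.166 to 0.19 CPM (counts scaled by library size and TMM factors). Of 7 thyroid markers, PAX8 had 379 to 479 CPM in OE libraries and 360 to 434 CPM in EV libraries, while NKX2-1, TSHR and SLC5A5 had 0 counts in all 10 libraries. KRT8 and KRT18 were present, and CDH1 and EPCAM reached at most 0.319 CPM. Of 10 fibroblast markers 4 had a mean of at least 1 CPM and DCN and POSTN were at 0; their sum was 104 to 131 CPM in OE libraries and 96.2 to 129 CPM in EV libraries, mostly FBLN1. The 6 endothelial and 6 leukocyte markers summed to at most 2.32 CPM in any library. EV replicate 2 stands apart from EV replicates 1 and 3 (chi-square of counts per degree of freedom 41.8 and 49.6, against 4.47 between the others). Calls of genes that rest on this library are given without it too.

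TPC-1 cells carried mainly RNA of type IV and type VI collagen, with little of the fibrillar chains COL1A1, COL1A2 and COL3A1. Fibrillar chains, mostly COL27A1 and COL5A1, summed to 91.1 to 129 CPM over the libraries. Transmembrane chains summed to 58.0 to 87.6 CPM and multiplexins to 51.6 to 100 CPM. Of the 44 genes, 13 had a mean of at least 10 CPM over the 10 libraries, 4 had 1 to 10 CPM and 27 had under 1 CPM. COL4A2 was highest by CPM (mean 437), followed by COL6A1 (384), COL4A1 (278) and COL6A2 (248), and the fifth, COL18A1, had 77.0. A filter on low counts kept 19 genes in the fit over both sets, namely 4 of 11 fibrillar, 3 of 6 basement membrane, 3 of 10 FACIT, 3 of 5 type VI, 2 of 4 transmembrane, 2 of 2 multiplexin and 1 of 3 short chain genes and COL7A1. COL24A1 and COL4A4 were also tested in the second set. In bulk RNA, fewer cells with a gene's RNA and less of it per cell cannot be told apart. The 23 genes that the filter left out of the fits over both sets, of the first set and of the second set reached at most 1.05 CPM in any library (COL4A6); some entered fits with a library left out or with no filter.

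**Figure D1:**
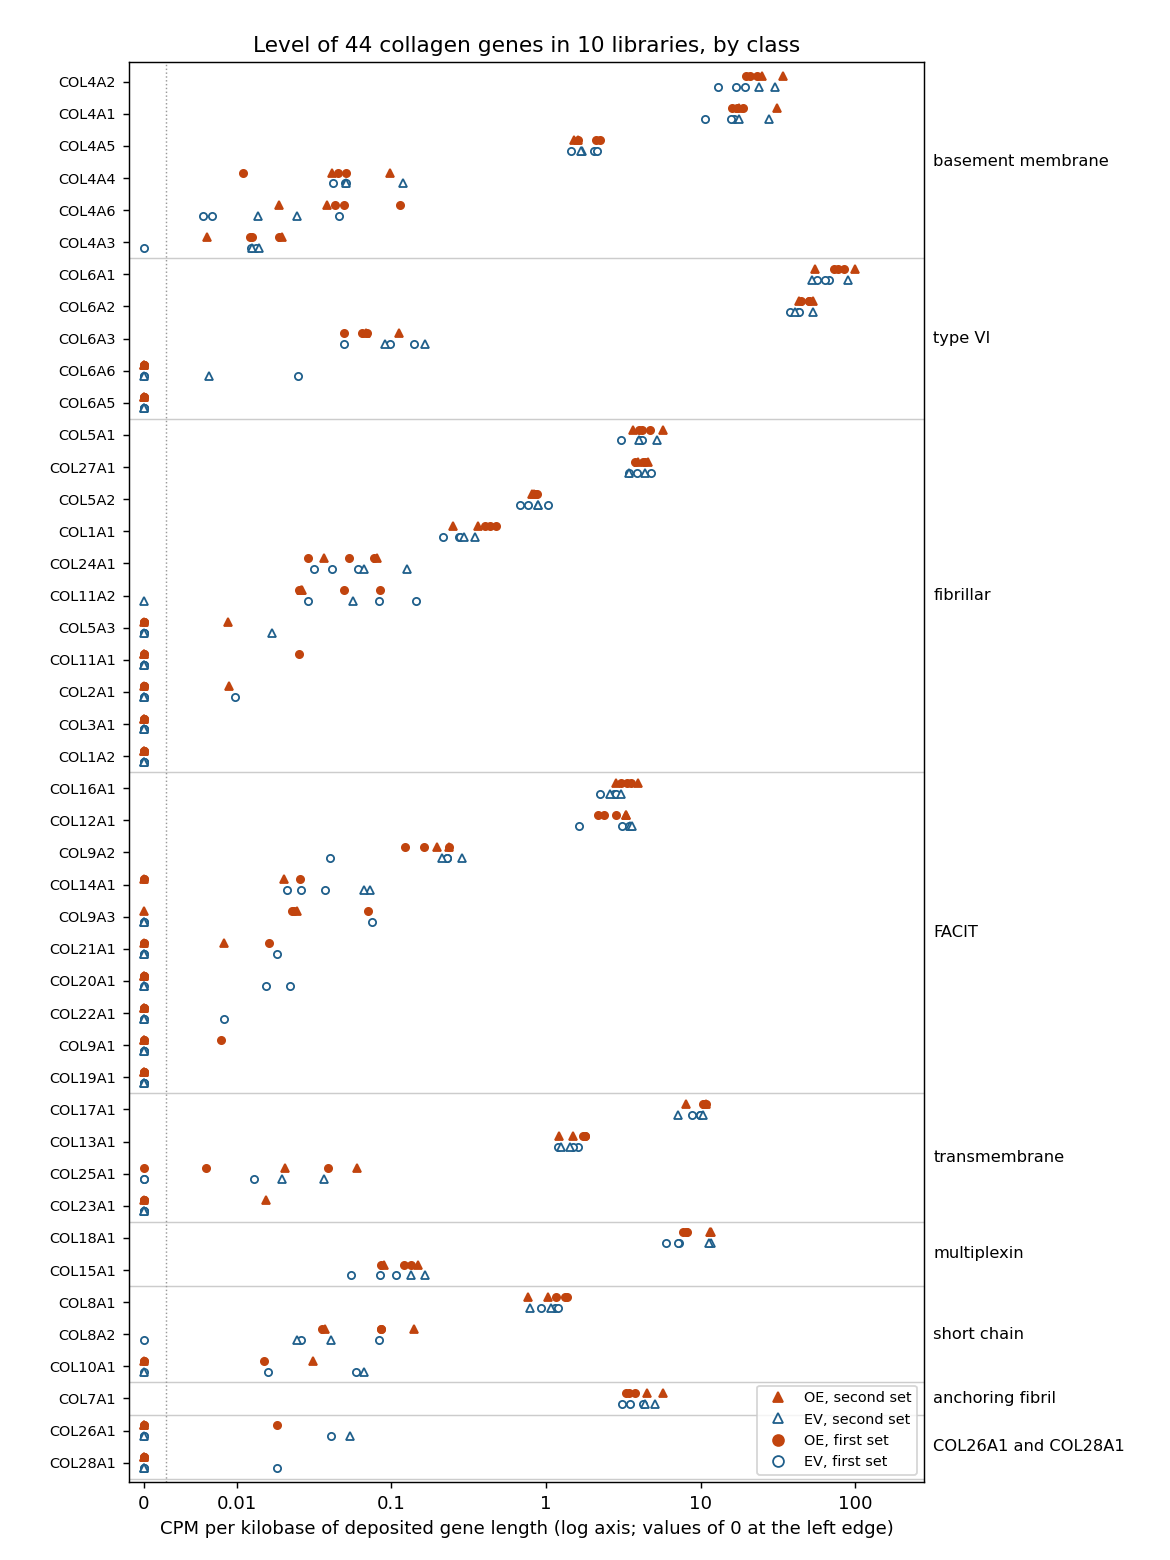
Level of the 44 collagen genes, grouped by class, as CPM per kilobase of deposited gene length on a log axis, with 1 point per library (filled for OE, open for EV, triangles for the second set, circles for the first set) and values of 0 at the left edge. COL6A1 and COL6A2 lie farthest to the right, the COL4A1 and COL4A2 points come next, and COL1A2, COL3A1, COL6A5 and COL19A1 are at 0 in all libraries.

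Because genes differ in length, levels were compared per kilobase of deposited gene length. On this scale COL6A1 (mean 71.9 CPM per kilobase) and COL6A2 (46.0) were highest, then COL4A2 (22.6), COL4A1 (18.9), COL17A1 (9.67) and COL18A1 (9.03). COL6A1 exceeded COL6A2, and COL4A2 exceeded COL4A1, in each of the 10 libraries. Type VI chains made up 52.9 to 61.2% of the summed collagen CPM per kilobase in OE libraries and 52.3 to 63.4% in EV libraries. Basement membrane chains made up 19.2 to 25.0% in OE and 16.0 to 24.3% in EV libraries, and fibrillar chains 4.09 to 5.02% and 4.04 to 5.88%. FACIT chains held 2.37 to 4.05% in OE and 2.59 to 3.89% in EV libraries, and transmembrane chains 4.61 to 6.49% and 4.71 to 6.42%. The ranges of OE and EV libraries overlapped for each of these 5 classes. With the mRNA that has the longest coding sequence as the length, a choice made after seeing the data, type VI held 43.3 to 55.9% and basement membrane chains 26.2 to 38.9% over the 10 libraries, since the deposited lengths of COL4A1 and COL4A2 (14738 and 19293 bases, the union of all annotated exons) are longer than those mRNAs (6616 and 6494 bases).

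**Figure D2:**
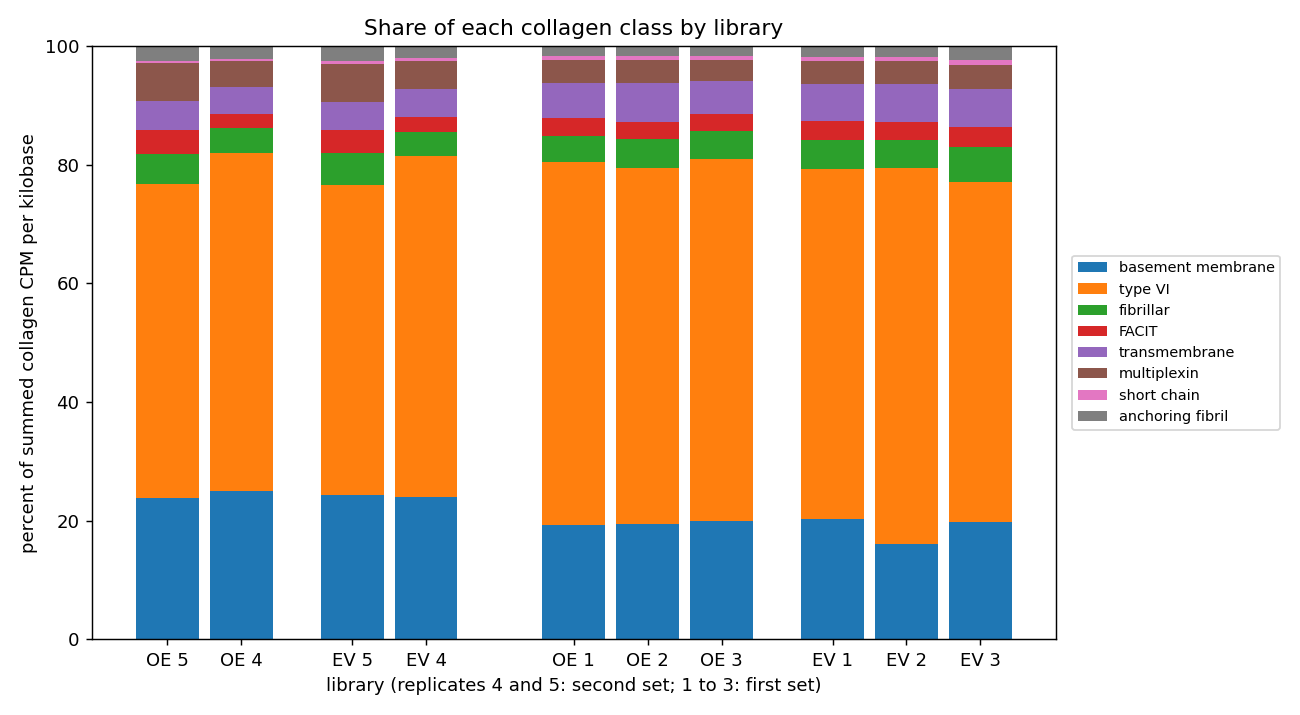
Share of each collagen class in the summed collagen CPM per kilobase (y axis, percent) for each library, OE left of EV and the second set left of the first. Type VI holds 52.3 to 63.4% in all libraries, and the basement membrane share is 23.8 to 25.0% in the second set and 16.0 to 20.2% in the first.

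Chains that share a trimer were often present at unequal levels. Type I collagen is made of COL1A1 and COL1A2 chains, and COL1A1 had 560 counts over the 10 libraries, while COL1A2 had 0. Per kilobase, the COL1A1 sum was at least 212-fold higher than COL1A2 with the limit of 3 counts over all libraries (at least 150-fold higher per mRNA length). COL3A1, the chain of type III collagen, also had 0 counts. COL5A1, the main chain of type V collagen, was above its partner COL5A2 in each library. Their ratio was 4.50 to 6.82 per kilobase in OE libraries and 4.05 to 5.95 in EV libraries. Per mRNA length it was 5.09 to 8.56 over the 10 libraries.

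Type VI collagen needs a further chain beside COL6A1 and COL6A2, in most tissues COL6A3. COL6A3 had 305 counts in all against 65598 for COL6A1, a ratio of 0.00127 per kilobase (0.00183 per mRNA length). Of the alternative partner chains, COL6A5 had 0 counts and COL6A6 had 5. The COL6A1 to COL6A2 ratio per kilobase was 1.25 to 1.87 in OE libraries and 1.29 to 1.69 in EV libraries.

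COL4A1 and COL4A2 together form the ubiquitous network of type IV collagen. Their ratio was 0.715 to 0.912 per kilobase in OE libraries and 0.734 to 0.933 in EV libraries. Per mRNA length it was 0.536 to 0.699 over the 10 libraries. Of the restricted chains, COL4A5 had 3663 counts, COL4A4 96, COL4A6 58 and COL4A3 19 over the 10 libraries. The head-to-head partners COL4A5 and COL4A6, whose start regions are printed, thus differed 49.4-fold per kilobase (65.8-fold per mRNA length). COL4A1 and COL4A2 differed by a ratio of 0.835 per kilobase (0.626 per mRNA length). COL8A1 exceeded COL8A2, its partner in type VIII collagen, 19.5-fold per kilobase over all libraries (32.2-fold per mRNA length). COL9A2 exceeded COL9A3 8.86-fold per kilobase (6.74-fold per mRNA length) from 139 and 18 counts.

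OE was compared with EV over both sets with the set as a term, which asks how collagen RNA differs with the overexpression vector. None of the 19 tested collagen genes passed (edgeR quasi-likelihood test, adjusted p under 0.05: 0 of 19, beside 0 of 14217 genes, 0%). This does not show that their levels were equal. Intervals of the log2 change lay above 0 for COL16A1 (0.08 to 0.54) and COL4A2 (0.02 to 0.53), and included 0 for the other tested collagen genes. At an unadjusted p under 0.05 there were 2 collagen genes and 812 genes in all, and DESeq2 called 0 collagen genes and 6 genes. Estimates were above 0 for 14 of the 19, with a median log2 change of 0.12, against -0.0028 over all genes, of which 49.2% were above 0. This count and median include EV replicate 2 and were not computed without it.

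COL16A1, a FACIT chain of chromosome 1 (31652247 to 31704319, minus strand, hg38), had the lowest p. It had 36.5 and 26.4 CPM in OE replicates 5 and 4 and 32.8, 28.5 and 31.0 CPM in OE replicates 1 to 3. EV replicates 5 and 4 had 28.5 and 24.2 CPM, and EV replicates 1 to 3 had 25.6, 26.1 and 20.7 CPM. OE was above EV at each replicate number, but numbers were not taken as pairs. The share of all genes with this order was not counted. Within the first set the OE libraries lay above the EV libraries, as for 9.15% of all tested genes. The log2 change was 0.31 (SE 0.11, n = 5 per group), with an edgeR adjusted p of 0.847.

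Neither main type IV chain passed the test, and over all 10 libraries OE and EV overlapped for both. COL4A2 (chromosome 13, 110305812 to 110513209, plus strand) had 478 and 658 CPM in OE replicates 5 and 4 and 405, 379 and 450 CPM in OE replicates 1 to 3, against 463 and 585 CPM in EV replicates 5 and 4 and 373, 249 and 326 CPM in EV replicates 1 to 3. COL4A1 (chromosome 13, 110148963 to 110307233, minus strand) had 261 and 458 CPM in OE replicates 5 and 4 and 254, 235 and 275 CPM in OE replicates 1 to 3, against 260 and 409 CPM in EV replicates 5 and 4 and 242, 158 and 232 CPM in EV replicates 1 to 3. In the annotation these genes overlap by 1422 bases, of which 0 are exonic in both. Both were highest in replicate 4 of each group and lowest in EV replicate 2. The log2 change of OE over EV was 0.27 for COL4A2 (SE 0.12, adjusted p 0.847) and 0.21 for COL4A1 (SE 0.16, adjusted p 0.881). COL4A5, mutated in Alport syndrome, had 19.1 and 17.9 CPM in OE replicates 5 and 4 and 19.1, 25.0 and 26.3 CPM in OE replicates 1 to 3, against 20.0 and 20.2 CPM in EV replicates 5 and 4 and 24.4, 17.2 and 25.4 CPM in EV replicates 1 to 3, and the groups overlapped.

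The genes of the main type VI chains lie on chromosome 21, both on the plus strand. COL6A1 (45981737 to 46005050) had 292 and 530 CPM in OE replicates 5 and 4 and 411, 388 and 453 CPM in OE replicates 1 to 3, against 281 and 479 CPM in EV replicates 5 and 4 and 363, 302 and 341 CPM in EV replicates 1 to 3. COL6A2 (46098097 to 46132849) had 235 and 286 CPM in OE replicates 5 and 4 and 271, 241 and 272 CPM in OE replicates 1 to 3, against 220 and 288 CPM in EV replicates 5 and 4 and 229, 234 and 203 CPM in EV replicates 1 to 3. The OE libraries of the first set lay above its EV libraries for both genes. Log2 changes over both sets were 0.24 for COL6A1 (SE 0.15) and 0.16 for COL6A2 (SE 0.09), and neither passed the test. Their partner COL6A3 had 0.970 to 2.20 CPM in OE and 0.968 to 3.26 CPM in EV libraries, and its log2 change was -0.60 (SE 0.31, adjusted p 0.847).

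Of the fibrillar chains, COL27A1, a minor fibrillar chain of cartilage, had 63.5 and 54.7 CPM in OE replicates 5 and 4 and 52.9, 61.0 and 59.7 CPM in OE replicates 1 to 3, against 61.0 and 48.4 CPM in EV replicates 5 and 4 and 54.3, 48.0 and 67.3 CPM in EV replicates 1 to 3. COL5A1, whose trimers regulate the width of fibrils, had 40.9 and 63.8 CPM in OE replicates 5 and 4 and 46.4, 44.9 and 52.3 CPM in OE replicates 1 to 3, against 44.7 and 58.8 CPM in EV replicates 5 and 4 and 45.2, 34.5 and 46.8 CPM in EV replicates 1 to 3. OE and EV overlapped for both, and COL5A1 was highest in replicate 4 of each group. COL1A1, the alpha1 chain of type I collagen, had 2.44 and 3.56 CPM in OE replicates 5 and 4 and 4.67, 4.27 and 3.94 CPM in OE replicates 1 to 3. In EV cells it had 2.87 and 3.44 CPM in replicates 5 and 4 and 2.70, 2.71 and 2.12 CPM in replicates 1 to 3. The OE libraries of the first set were thus the highest of the 10. COL1A1 had a log2 change of 0.44 over both sets (SE 0.21, adjusted p 0.847).

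Among the other abundant chains the groups overlapped as well. COL17A1, the hemidesmosomal collagen (chromosome 10, 104031286 to 104085957, minus strand), had 56.7 and 76.4 CPM in OE replicates 5 and 4 and 73.9, 76.9 and 73.5 CPM in OE replicates 1 to 3, against 50.2 and 73.6 CPM in EV replicates 5 and 4 and 70.4, 62.2 and 69.8 CPM in EV replicates 1 to 3. It was lowest in replicate 5 of each group. COL12A1, a FACIT chain found in dense connective tissue, had 41.3 and 40.8 CPM in OE replicates 5 and 4 and 29.6, 27.0 and 35.6 CPM in OE replicates 1 to 3. In EV cells it had 44.9 and 43.6 CPM in replicates 5 and 4 and 38.8, 20.5 and 43.1 CPM in replicates 1 to 3. EV replicate 2 lay far below the other EV libraries for this gene. COL8A1, a short chain collagen of vessel walls and the cornea, had 7.16 and 9.67 CPM in OE replicates 5 and 4 and 10.9, 12.4 and 12.8 CPM in OE replicates 1 to 3, against 7.47 and 10.1 CPM in EV replicates 5 and 4 and 10.8, 8.71 and 11.3 CPM in EV replicates 1 to 3. COL13A1, a transmembrane chain, had 7.10 to 10.6 CPM in OE and 7.04 to 9.45 CPM in EV libraries. COL7A1 and COL18A1 also overlapped between OE and EV and are given by library with the comparison of the sets.

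**Figure D3:**
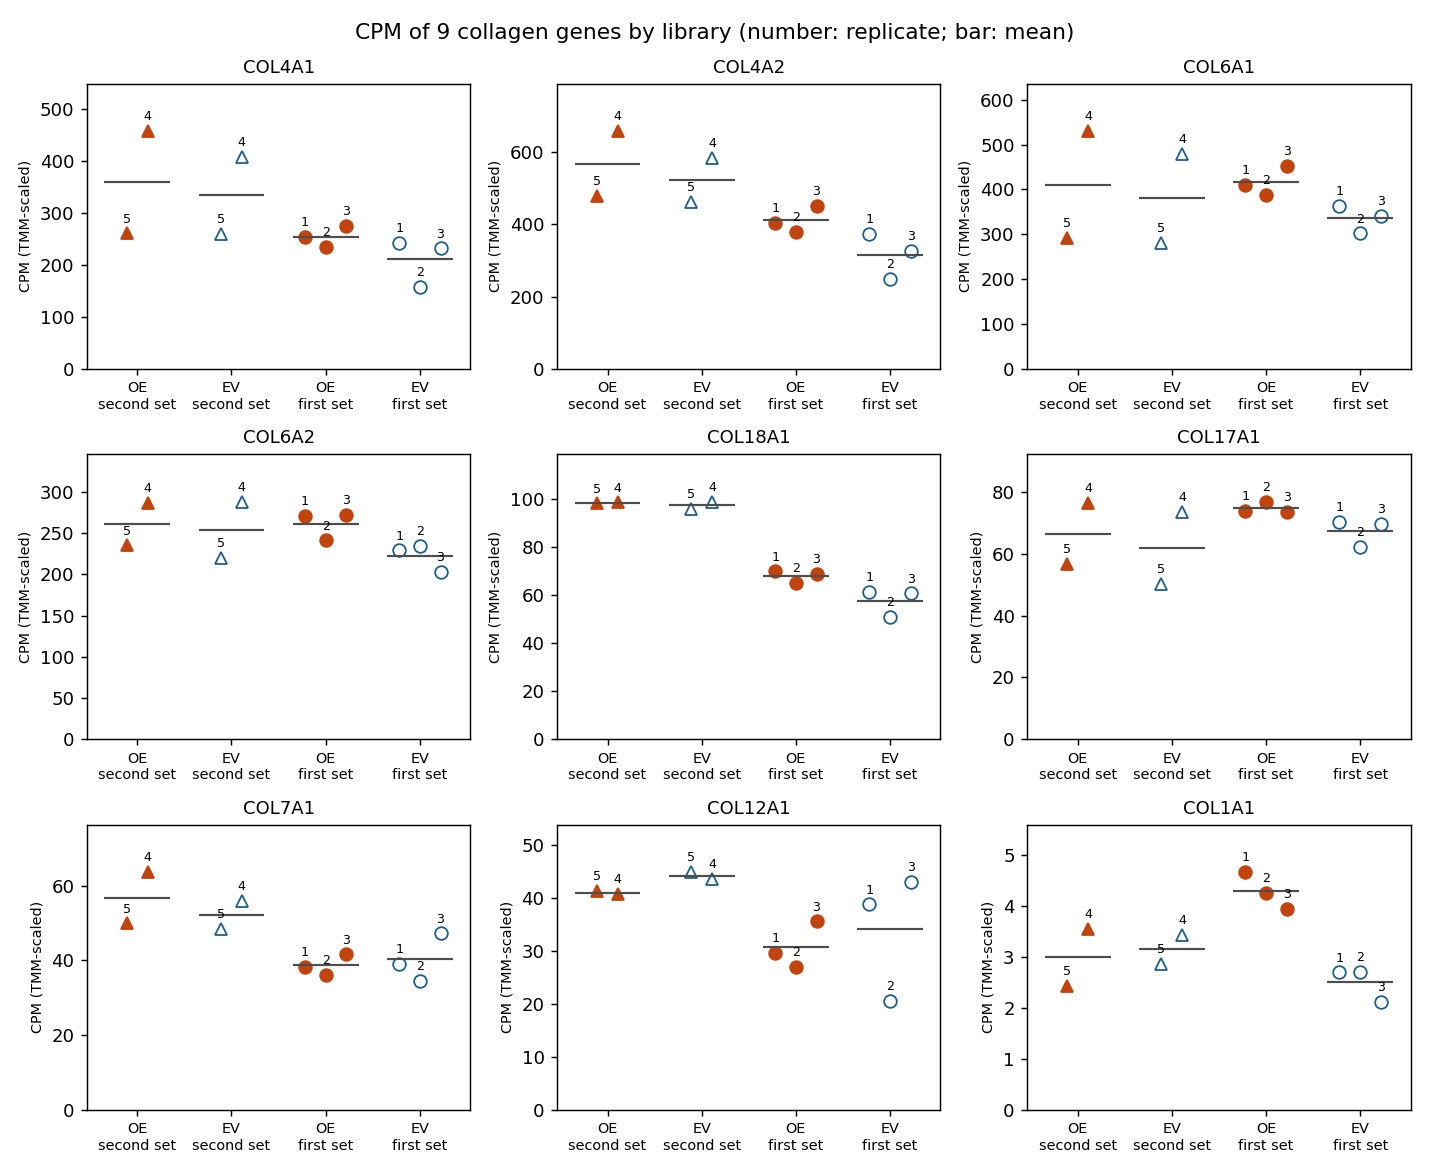
CPM of 9 collagen genes (y axis from 0) in each library, numbered by replicate, with OE left of EV and the second set left of the first; bars are means of the libraries of a group and set. COL18A1 lies at 96.2 to 99.1 CPM in the second set and 50.9 to 70.0 CPM in the first, and COL6A1 has its highest points in replicates 4.

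In the first set alone, 0 of 19 collagen genes passed the test (5 of 14340 genes, 0.0349%), with 5 at an unadjusted p under 0.05 against 1268 genes in all, and DESeq2 called 0 collagen genes and 76 genes. Estimates were above 0 for 16 of 19, with a median of 0.22 against -0.0113 over all genes. By class, the median log2 change was 0.26 for basement membrane chains, 0.23 for type VI, 0.22 for transmembrane, 0.10 for fibrillar and 0.07 for FACIT chains. These medians include EV replicate 2 and were not computed without it. Over fits with a library left out, changes were 0.10 to 0.38 for COL4A1, 0.23 to 0.51 for COL4A2 and -0.09 to 0.19 for COL4A5. They were 0.24 to 0.37 for COL6A1, 0.17 to 0.28 for COL6A2 and -0.97 to -0.28 for COL6A3. In 8 of the 19 the 3 OE libraries all lay above the 3 EV libraries (COL1A1, COL4A2, COL6A1, COL6A2, COL13A1, COL16A1, COL17A1 and COL18A1), beside 9.15% of all tested genes, and 0 lay wholly below, beside 7.86%; in either direction the share over all genes was 17%. The 7 thyroid markers, mostly PAX8, summed to 473 to 507 CPM in OE and 374 to 425 CPM in EV libraries of this set. The part of these markers in the collagen values was not tested. COL1A1 had the largest change above 0 of the 19, 0.76 (SE 0.22, adjusted p 0.417), with a mean of 4.30 ± 0.368 CPM in OE and 2.51 ± 0.338 CPM in EV cells (SD, n = 3 each).

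Leaving out EV replicate 2 changed the calls in the first set. It was the lowest of the 6 libraries for COL4A1, COL4A2, COL6A1, COL5A1, COL7A1, COL12A1, COL17A1 and COL18A1, among others, and not for COL1A1, COL6A2 and COL16A1. Without it, 6 of 20 tested collagen genes passed the test, beside 1578 of 14769 genes (10.7%). Of these 5 rose, namely COL1A1 (0.82, SE 0.26), COL16A1 (0.40, SE 0.11), COL6A2 (0.27, SE 0.07), COL6A1 (0.24, SE 0.07) and COL4A2 (0.23, SE 0.07), with adjusted p of 0.0128 to 0.0413. COL12A1 fell by 0.42 (SE 0.10, adjusted p 0.00933), with 3 OE libraries at 27.0 to 35.6 CPM and 2 EV libraries at 38.8 and 43.1 CPM.

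In the second set alone, 0 of 21 collagen genes passed (0 of 14419 genes, 0%), with 0 at an unadjusted p under 0.05 against 158 genes in all, and DESeq2 called 0 collagen genes and 1 gene. Estimates were above 0 for 11 of 21, with a median of 0.01 against 0.0025 over all genes. Class medians were 0.00 for basement membrane chains, 0.04 for type VI, 0.06 for transmembrane, -0.07 for fibrillar and -0.11 for FACIT chains. COL16A1 was at 0.26 (SE 0.18), COL4A2 at 0.12 (SE 0.17), COL6A1 at 0.12 (SE 0.32) and COL1A1 at -0.07 (SE 0.33). In 3 genes, COL4A5, COL5A2 and COL12A1, both OE libraries were below both EV libraries, beside 12.7% of all genes (25% in either direction).

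The difference of the OE over EV change between the sets was tested in an interaction term. It passed for 0 of 19 collagen genes (1 of 14217 genes, 0.00703%), with 1 collagen gene and 496 genes at an unadjusted p under 0.05, and DESeq2 called 0 collagen genes and 9 genes. That gene was COL1A1, whose change was lower in the second set than in the first by a log2 difference of -0.85 (SE 0.37, edgeR adjusted p 1.0).

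**Figure D4:**
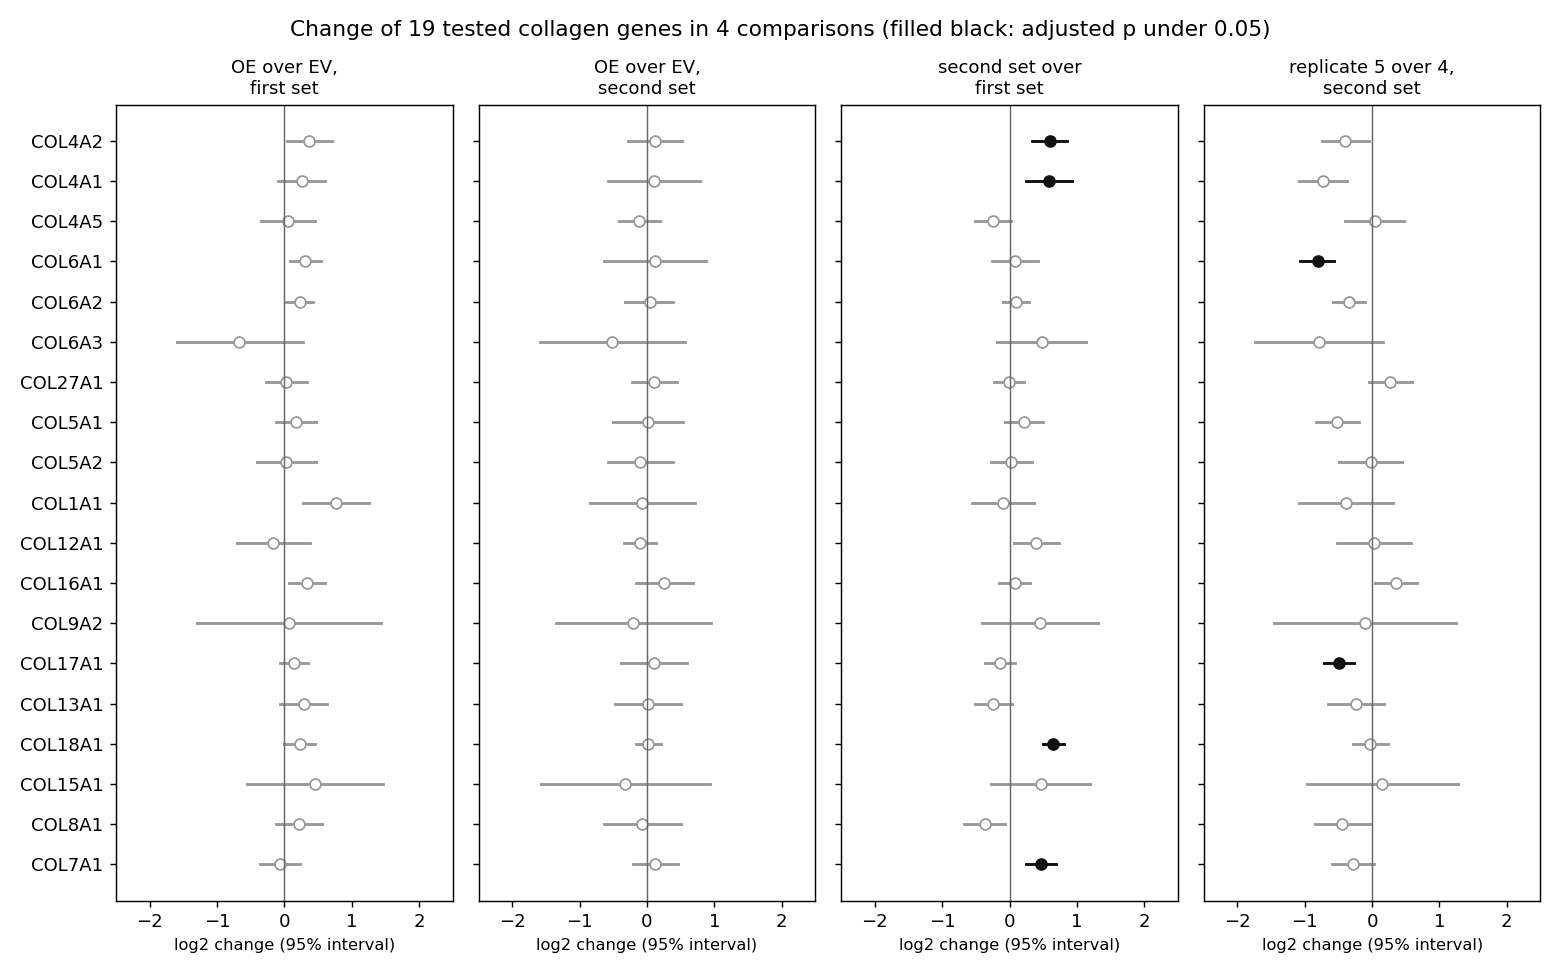
Log2 change (x axis) with its 95% interval for the 19 collagen genes tested over both sets, for OE over EV in the first set and in the second set, for the second set over the first, and for replicate 5 over replicate 4. Black filled points passed the test: COL18A1, COL4A2, COL4A1 and COL7A1 between the sets, and COL6A1 and COL17A1 between the replicates.

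Between the sets, COL18A1, COL4A2, COL4A1 and COL7A1 rose. With the vector as a term, 4 of 19 collagen genes were called, all higher in the second set (21.1%, beside 18.4% of 14217 genes called in either direction, 9.27% called higher and 9.17% called lower). The share called in either direction was thus near that over all genes. By class, the calls were 2 of 3 tested basement membrane chains, 1 of 2 multiplexins and COL7A1. They were 0 of 4 fibrillar, 0 of 3 FACIT, 0 of 3 type VI and 0 of 2 transmembrane chains. COL4A5, the third basement membrane chain, was at -0.25 (SE 0.13), and the FACIT chain COL12A1 was at 0.39 (SE 0.15), both uncalled. The median over the 19 was 0.10, against -0.0012 over all genes. In 3 of them, COL4A2, COL7A1 and COL18A1, the 4 libraries of the second set all lay above the 6 of the first, beside 8.68% of all genes higher and 7.88% lower (16.6% in either direction).

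COL18A1, whose C-terminal fragment is endostatin (chromosome 21, 45405137 to 45513720, plus strand), had 98.4 and 98.8 CPM in OE replicates 5 and 4 and 96.2 and 99.1 CPM in EV replicates 5 and 4. In the first set it had 70.0, 65.2 and 68.8 CPM in OE and 61.4, 50.9 and 60.8 CPM in EV replicates 1 to 3. The 4 libraries of the second set lay close together, and above every library of the first set. The log2 change of the second over the first set was 0.65 (SE 0.08, edgeR adjusted p 0.000138, n = 4 and 6). SLC19A1, a folate transporter gene on the opposite strand, overlaps COL18A1 by 20149 bases, of which 1401 are exonic in both, and had 0.64 (SE 0.07, adjusted p 0.000105) on the same scale. The sources used here do not say whether the counting used strand, and the part of shared reads in either value was not tested.

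COL4A2 rose by 0.60 (SE 0.12, adjusted p 0.00464) and COL4A1 by 0.58 (SE 0.16, adjusted p 0.0234) in the second set. COL4A2 averaged 546 ± 92.2 CPM (SD, n = 4) in the second set and 364 ± 69.3 CPM in the first (SD, n = 6). The COL4A1 call ended without EV replicate 4, OE replicate 4 or OE replicate 2 (adjusted p 0.127, 0.119 and 0.0541). COL7A1 rose by 0.47 (SE 0.10, adjusted p 0.00719), with 49.9 and 63.6 CPM in OE replicates 5 and 4 and 48.4 and 56.0 CPM in EV replicates 5 and 4, against 38.2, 36.2 and 41.6 CPM in OE and 39.0, 34.5 and 47.2 CPM in EV replicates 1 to 3. In OE libraries alone 5 of 18 collagen genes were called, beside 14.3% of genes: COL4A1, COL4A2, COL7A1, COL18A1 and COL12A1 (0.42, SE 0.12, adjusted p 0.0236). In EV libraries alone 0 of 17 were called, beside 0.338% of genes, with log2 changes of 0.76 for COL18A1 (SE 0.14, adjusted p 0.0635), 0.73 for COL4A2 (SE 0.19), 0.66 for COL4A1 (SE 0.23) and 0.37 for COL7A1 (SE 0.16). In OE libraries alone these were 0.54 (SE 0.08), 0.47 (SE 0.11), 0.50 (SE 0.15) and 0.56 (SE 0.11) in the same order, and the difference between OE and EV passed the test for 0 collagen genes. Without EV replicate 2 the count over both groups was 7 of 20, beside 26.6% of genes, with COL12A1 (0.28) higher and COL4A5 (-0.33) and COL8A1 (-0.42) lower in the second set. The set cannot be told apart from whatever was done separately for it.

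Within the second set, replicate 5 was compared with replicate 4 in OE and EV together, in a fit over all 10 libraries. The 2 collagen genes called were both lower in replicate 5, 10.5% of 19, beside 0.753% of 14217 genes called in either direction, 0.471% called lower and 0.281% called higher. COL6A1 was at 292 CPM in OE replicate 5 and 281 CPM in EV replicate 5, against 530 and 479 CPM in replicates 4. Its log2 change was -0.81 (SE 0.12, adjusted p 0.00596), and its call ended when any single library of the second set was left out (adjusted p 0.0643 to 0.192), with changes of -0.92 to -0.70. COL17A1 had 56.7 CPM in OE replicate 5 and 50.2 CPM in EV replicate 5, against 76.4 CPM in OE replicate 4 and 73.6 CPM in EV replicate 4. Its change was -0.49 (SE 0.10, adjusted p 0.0482), a call that ended with limma-voom, with DESeq2 size factors and when any single library other than EV replicate 2 was left out, with changes of -0.53 to -0.44 over the fits with a library left out.

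The 3 type VI genes were all below 0 in this comparison, with a median of -0.79, and COL6A2 had -0.34 (SE 0.11, adjusted p 0.282). COL4A1 had -0.73 (SE 0.17, adjusted p 0.0864), COL5A1 -0.52 (SE 0.15, adjusted p 0.222) and COL4A2 -0.40 (SE 0.16, adjusted p 0.423). COL18A1, which was higher in the second set, differed little between its replicates, with 98.4 and 96.2 CPM in replicates 5 against 98.8 and 99.1 CPM in replicates 4 (OE and EV in each pair). Over the 19 genes the median was -0.28, against -0.0016 over all genes. Both libraries of replicate 5 lay outside those of replicate 4 for 14 of 19 genes, 12 lower and 2 higher (COL16A1 and COL27A1), beside 52.3% of all genes in either direction, 26.4% lower and 25.9% higher. Without EV replicate 2 the fit called 6 of 20 collagen genes, all lower in replicate 5, beside 3.88% of genes: COL6A1, COL4A1, COL17A1, COL5A1, COL4A2 and COL6A2.

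The genes that make, bind or sense collagen were taken as lists. Over both sets 0 of 34 tested genes of collagen biosynthesis and processing, 0 of 9 receptors and 0 of 6 fibril binding proteins were called between OE and EV, with medians of 0.02, 0.00 and -0.07. The lowest p among receptors was that of DDR1, a collagen-binding receptor kinase. It had 42.8 ± 1.97 CPM in OE and 36.9 ± 2.39 CPM in EV cells (SD, n = 5 each), with ranges of 40.8 to 45.9 and 34.5 to 39.8 CPM. The share of all genes with such separate ranges over both sets was not counted. DDR1 had a log2 change of 0.21 (SE 0.07, edgeR adjusted p 0.847). PLOD1, a lysyl hydroxylase, had 0.18 (SE 0.06), P3H3 0.22 (SE 0.09), MRC2 0.18 (SE 0.09), THBS1 -0.16 (SE 0.11) and BGN -0.12 (SE 0.16), none past the test.

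Between the sets, 16 of 34 biosynthesis genes were called, 7 higher and 9 lower in the second set, beside 18.4% of all genes, with a list median of -0.03. P4HA1, a catalytic subunit of prolyl 4-hydroxylase, had 36.6 and 40.2 CPM in OE replicates 5 and 4 and 38.5 and 36.7 CPM in EV replicates 5 and 4, against 53.3 to 65.8 CPM in the first set, and fell by 0.59 (SE 0.08, adjusted p 0.00043). SERPINH1, the collagen chaperone HSP47, fell by 0.49 (SE 0.09), with 175 to 227 CPM in the second set and 256 to 309 CPM in the first. ADAMTS3, a procollagen N-propeptidase, rose by 0.59 (SE 0.10) and the cross-linking enzyme LOXL1 by 0.58 (SE 0.11). Of 9 receptors 1 was called, MRC2, an endocytic collagen receptor, which rose by 0.62 (SE 0.09, adjusted p 0.00043).

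Of 6 tested fibril binding proteins, 4 rose and 1 fell in the second set, beside 9.27% of all genes called higher and 9.17% called lower. THBS1 rose by 1.18 (SE 0.11, adjusted p 2.48e-05), with 682 and 865 CPM in OE replicates 5 and 4 and 656 and 934 CPM in EV replicates 5 and 4, against 298 to 409 CPM in the first set. BGN rose by 0.86 (SE 0.16), TGFBI by 0.72 (SE 0.15) and SPARC, a collagen-binding matrix protein, by 0.48 (SE 0.13), and FN1 fell by 0.67 (SE 0.13). Between replicates 5 and 4, TGFBI (-0.81, SE 0.11, adjusted p 0.00459) and SPARC (-0.66, SE 0.10, adjusted p 0.00674) were called lower, beside 0.471% of all genes, as COL6A1 was, and 0 of 34 biosynthesis genes and 0 of 9 receptors were called.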

How the data were processed

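RNA of TPC-1 cells was sequenced in 10 paired-end libraries (Illumina NovaSeq), from TRIzol extracts with DNase I digestion and a NEBNext Ultra kit, per the labels' protocols. The submitters' processing notes name the build hg38, and DESeq2 1.20.0, featureCounts 1.5.0-p3, HISAT2 2.0.5, fastp and CASAVA 1.8. The sources used here give neither their settings, strand included, nor the annotation release. The authors deposited 2 tables of raw counts per gene, with a gene length in bases, which for all 44 collagen genes equals the union of exons in GENCODE 29. Another 14 columns of per-library FPKM or normalized values were left out.

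Counts were joined by gene identifier and tested with edgeR 4.0.16 (quasi-likelihood, TMM, filterByExpr, Benjamini-Hochberg adjusted p under 0.05 over all tested genes) in R 4.3.3. The fit of OE over EV had the set as a term; each set was fitted alone, and the set, an interaction and replicate 5 against 4 were tested over all libraries. SE is the one implied by the test, and intervals are at 95%. Alternatives were DESeq2 1.42.0, its size factors, limma-voom (3.58.1), no filter, leaving out libraries, a replicate block, no set term and subsets. The fits were also run on simulated counts with 200 changed genes. These counts had the same dispersion for every gene and no library that stood apart, so they do not show how the fits perform here. Genes were given by library at a mean of at least 10 CPM or when called; of the collagen pathway lists, up to 4 called genes per fit (SPARC, the fifth between the sets, is named as a called gene between replicates), otherwise the 2 lowest p over both sets. Members and lists were chosen with earlier results of these data known. Depth was 15761474 to 18066559 counts per library, and limits for a count of 0 cover counting error only.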

Additional observations from a re-analysis of the deposited data

Results flagged for a closer look

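For 3 of 38 groups of 5 libraries (19 tested collagen genes in OE and in EV), 1 library lay far from the others by Dixon's test, with a gap to its neighbour above 0.71 of the range; chance gives about 1 in 20 groups. COL4A1 in OE replicate 4 had 458 CPM, against 275 CPM in the next library. COL17A1 in OE replicate 5 had 56.7 CPM, against 73.5 CPM in the next. COL12A1 in EV replicate 2 had 20.5 CPM, against 38.8 CPM in the next. What sets these libraries apart was not tested.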

How the results depend on the processing

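Between OE and EV over both sets, 0 collagen genes were called under each alternative; over all genes the count of 0 was 23 with no filter and 6 with DESeq2. In the first set, collagen calls were 0 under each alternative except when libraries were left out (0 to 6), and calls over all genes (5) were 90 with no filter, 76 with DESeq2, 1 with the replicate block and 0 to 1578 when libraries were left out. In the second set, calls over all genes (0) were 12, 1, 71 and 0 to 1 in the same order. For the difference between the sets, calls (1) were 28, 9, 3 and 0 to 7. Between the sets, the 4 collagen calls were 0 in EV libraries alone and 3 to 7 when libraries were left out, and 2621 calls over all genes were 44 and 1312 to 3850. Between replicates 5 and 4, the 2 collagen calls were 1 with DESeq2 size factors or limma-voom, 4 with no filter, 9 in the second set alone and 0 to 6 when libraries were left out. There the 107 calls over all genes were 238 with no filter, 237 with DESeq2, 2074 in the second set alone and 18 to 560 when libraries were left out.

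Leaving out a library turned the sign of the log2 change of OE over EV, in at least 1 fit, for 5 of 19 tested collagen genes over both sets, 6 of 19 in the first set and 14 of 21 in the second, all uncalled; other alternatives turned it for 2, 0 and 1. Among the changes printed above these were COL12A1 in the first set (-0.42 to 0.04), COL1A1 (-0.37 to 0.17), COL4A2 (-0.13 to 0.33) and COL6A1 (-0.38 to 0.55) in the second set; BGN turned over both sets (-0.21 to 0.01). The cause was not tested. Replicate numbers were not taken to pair the samples, since what joins the 5 pairs is not given and not every pair correlated above 0.1: deviations of same-numbered OE and EV libraries correlated across genes at -0.114, 0.004 and 0.16 in the first set and 0.314 in the second, where the block moved the count over all genes from 0 to 71. With the replicate block, 0 collagen genes were called between OE and EV. A count of 0 in a library allows up to 0.166 to 0.19 CPM. Where leaving out a library left 1 in a group, that library was assumed to vary like the others.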
